A study of Mus musculus with 10 samples.

Results

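Imprinted genes are expressed mainly or only from 1 parental chromosome, maternal for some genes and paternal for others. The 42 imprinted mouse genes described here were chosen by name, under a rule that used no measured value, and were matched by symbol in a table of 47729 genes. The list was, however, proposed with earlier results of these data known. All 42 were found. By the allele known to be expressed in mouse, 17 are maternal, 23 are paternal, and 2 (Grb10 and Gnas) use a different allele for different isoforms. Some of these labels are known from certain tissues only, such as heart for Ddc and neurons for Ube3a. Whether they hold in the limb bud was not tested. The gene counts sum both parental chromosomes, so none of the values below says which allele was read.

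Most imprinted genes lie in clusters. In each cluster a control region carries DNA methylation on 1 parental chromosome only, set in the egg or the sperm and kept after fertilisation. At many clusters the control region works through a long noncoding RNA or through the insulator protein CTCF. Many of the proteins control growth of the embryo: Igf2, Dlk1 and Peg3 lie on the paternal side, and the growth restrainers Cdkn1c, Igf2r and Grb10 on the maternal side. CXXC1, encoded by the gene deleted in this study, binds CpG without methylation and is a subunit of the SET1 enzymes, which methylate histone H3 at lysine 4. Mouse embryonic stem cells that lack it are known to have less DNA methylation.

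Total RNA of mouse forelimb buds at embryonic day 11.5 to 12 was sequenced in 10 libraries, 5 knockout and 5 control. All 5 knockout embryos had the genotype Prx1Cre_+-Cxxc1fl_fl, in which Cre recombinase from the Prx1 enhancer, active in limb bud mesenchyme, acts on floxed Cxxc1 on both chromosomes. Blood, endothelial, ectodermal and muscle precursor cells of the bud come from lineages outside that mesenchyme. Control 1 was Prx1Cre_+-Cxxc1fl_wt, controls 2 and 4 were CreWT-Cxxc1fl_WT, control 3 was CreWT-Cxxc1fl_fl, and control 5 was Prx1Cre?-Cxxc1fl_fl, with the question mark in its label. Litter A held knockouts 1 and 2 and controls 1 and 2, and litters B, C and D held 1 of each group. Somite stages ran from 49 to 51 in each group. The labels do not give the strain or the sex of the embryos.

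Total counts ran from 33274855 to 49881126 in knockouts and from 44170158 to 49001179 in controls. Cxxc1 itself stood at 75.2 ± 1.23 CPM in knockouts and 96.7 ± 6.88 CPM in controls; the gene count does not separate the deleted exons from the rest. All 12 limb mesenchyme markers and all 8 cartilage markers examined were detected. Xist was at 2290 CPM in knockout 3 and 4114 CPM in control 1, against 0.360 to 5.48 CPM in the other libraries. The common dispersion across genes gave a biological coefficient of variation of 16.4%. Levels are CPM, reads of the gene per 1000000 of the TMM-scaled library, given as mean ± SD with 5 libraries in each group. A log2 fold change sets knockout over control and comes from edgeR's quasi-likelihood test. Its p was adjusted by the Benjamini-Hochberg method across 20562 tested genes, and a gene was called below 0.05. In bulk RNA, fewer cells of a type and less RNA per cell cannot be told apart.

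H19 and Igf2, per kilobase the most abundant of the imprinted RNAs in controls, were lower in the knockout. Cdkn1c, Grb10, Dlk1 and the maternal noncoding RNAs of the Dlk1 locus also fell, while the Peg3 and Zim1 pair and the low-level genes Phlda2, Dio3 and Ddc rose. Of the 42 genes, 41 passed the filter on low counts. Among these 41, edgeR's test called 5 higher and 13 lower, and 23 did not pass. Over all genes tested, 18.1% were called higher, 17.1% lower and 35.2% in either direction. The same shares of the imprinted genes were 12.2%, 31.7% and 43.9%. Without TMM scaling, by library size alone, 7 were called higher and 11 lower, and over all genes the calls split into 4492 higher and 2734 lower, against 3719 higher and 3526 lower with TMM. Without the 2 libraries with high Xist, 6 imprinted genes were called higher and 13 lower. The groups did not overlap for 16 of the 41, against 25.3% of all genes tested.

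The changes were moderate in size. The log2 fold changes ran from -1.36 (Dlk1) to 1.27 (Phlda2), with a median of -0.12, against -0.00 for all genes tested. The median absolute log2 fold change was 0.28, against 0.23 for all genes. Of the 41 tested, 4 were called with a change of 2-fold or more (Dlk1, Meg3, Phlda2 and Dio3), against 1448 of all 20562 genes tested. Each of the 18 called genes differed in the same direction in all 4 litters. For all but 2 of them the groups did not overlap, which by itself fixes the direction in every litter. The calls came from these same libraries, so the agreement is a description and no separate test.

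**Figure D1:**
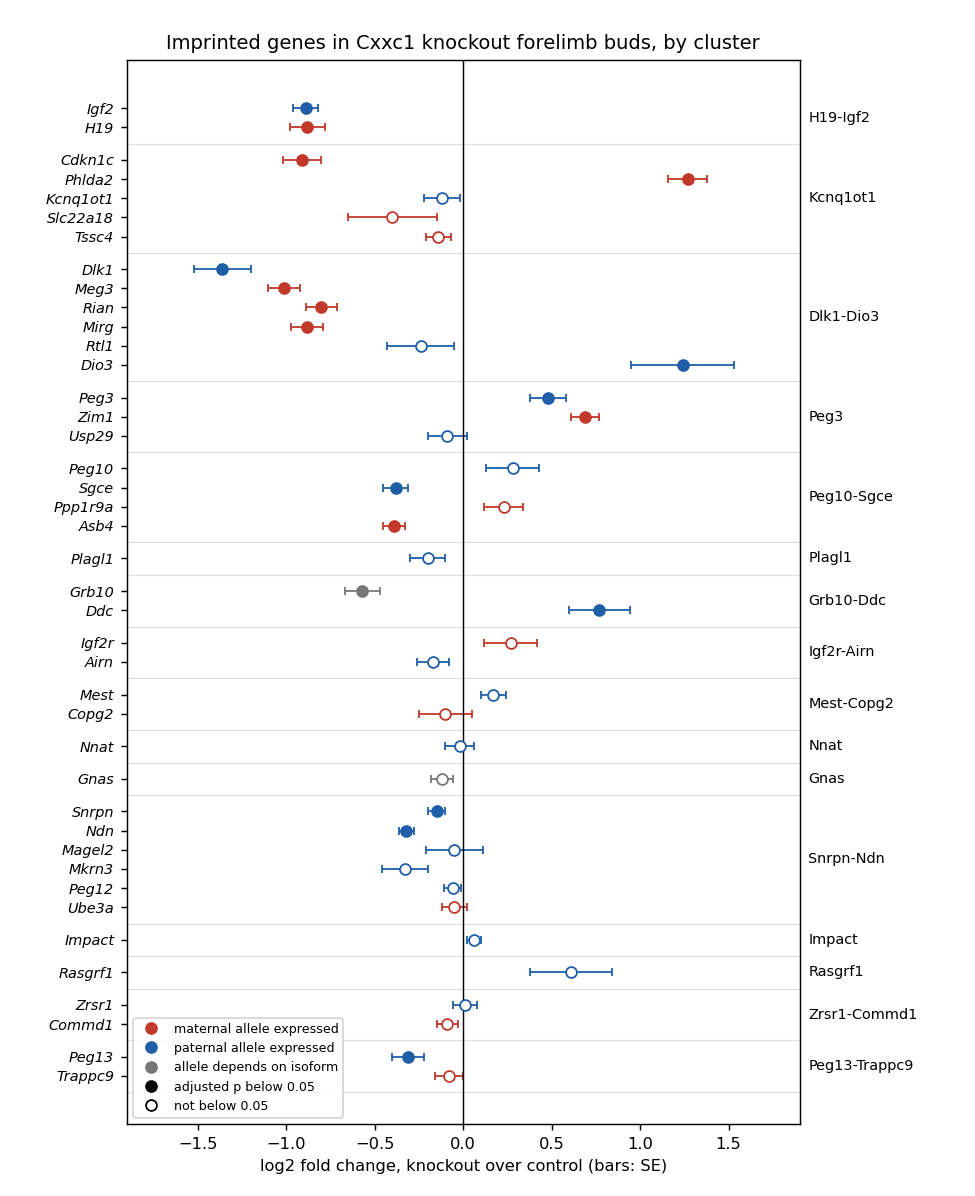
Log2 fold change (knockout over control, x axis, bars are SE) of the 41 tested imprinted genes, grouped by cluster from top to bottom, with colour for the expressed allele and filled points for an adjusted p below 0.05. Within the Kcnq1ot1 and Dlk1-Dio3 clusters the called genes lie on both sides of 0, with Phlda2 at 1.27 and Cdkn1c at -0.91, and Dio3 at 1.24 and Dlk1 at -1.36.

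Both directions occurred among the genes of each parental allele. Of the 16 maternal genes tested, 2 were higher (Phlda2 and Zim1), 6 were lower and 8 were not called, with a median log2 fold change of -0.12. Of the 23 paternal genes, 3 were higher (Dio3, Peg3 and Ddc), 6 were lower and 14 were not called, with a median of -0.09. The share called in either direction was 50% for maternal and 39.1% for paternal genes, against 35.2% of all genes tested. The share called lower was 37.5% for maternal and 26.1% for paternal genes, against 17.1% of all genes tested. Whether either set differed from all genes was not tested. Maternal and paternal genes of 1 cluster were called in the same direction at H19 and Igf2, at Meg3 and Dlk1, at Zim1 and Peg3, and at Asb4 and Sgce. Dio3 was called in the direction opposite to Meg3, Rian and Mirg.

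The 42 genes together took a smaller share of the counts in the knockout. All 42 held 1.14 to 1.37% of all counts in knockout libraries, against 1.48 to 1.80% in control libraries. H19 and Igf2 alone held 0.411 to 0.530% in knockouts and 0.744 to 0.894% in controls. The ranges did not overlap for either share. The other 40 genes held 0.727 to 0.841% in knockouts and 0.738 to 0.902% in controls, and these ranges overlapped.

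At the H19-Igf2 locus of distal chromosome 7, both genes fell to about the same fraction. Igf2 (ENSMUSG00000048583, chromosome 7, 142650766 to 142666816, minus strand, GRCm38) encodes the fetal growth factor IGF2 and is read from the paternal chromosome. Its level was 1696, 1774, 2036, 1798 and 1903 CPM in knockouts 1 to 5, against 3174, 3495, 3523, 3059 and 3755 CPM in controls 1 to 5. Every knockout lay below every control. The knockout mean was 54.1% of the control mean, a log2 fold change of -0.89 ± 0.07 (SE, edgeR adjusted p = 1.4e-06). H19 (ENSMUSG00000000031, chromosome 7, 142575529 to 142578143, minus strand) is a maternal noncoding RNA that uses the same downstream enhancers as Igf2. It was at 2291, 2544, 2906, 3163 and 3388 CPM in knockouts 1 to 5, and at 5540, 5584, 5122, 4542 and 5538 CPM in controls 1 to 5. Here too the groups were separate, and the mean was 54.3% of control, a log2 fold change of -0.88 ± 0.10 (SE, edgeR adjusted p = 4.0e-05).

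The ratio of H19 to Igf2 counts in each library does not depend on scaling between libraries. It was 1.55 ± 0.203 in knockouts and 1.55 ± 0.122 in controls (SD, n = 5 each), and the ranges overlapped. The mean log2 ratio differed by -0.01 (exact two-sided permutation test, p = 0.929, adjusted p = 0.929 over 8 pairs). Within litters this difference was -0.26 in litter A, -0.03 in B, 0.24 in C and 0.27 in D, without a common direction.

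H19 carries a microRNA gene in an exon, and the noncoding RNAs Meg3 and Mirg carry others. The mature sequences shown here, from RefSeq (GRCm38.p6), belong to hosts that fell in the knockout; the microRNAs themselves were not measured. Capitals mark the seed, bases 2 to 8. The first 2 lie in an H19 exon and the next 2 in Mirg exons. The last 2 lie in Mirg introns and share 1 seed.
miR-675-5p: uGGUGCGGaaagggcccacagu
miR-675-3p: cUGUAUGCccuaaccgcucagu
miR-134-5p: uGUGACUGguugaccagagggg
miR-410-3p: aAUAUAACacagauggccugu
miR-453: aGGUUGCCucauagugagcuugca
miR-496a-5p: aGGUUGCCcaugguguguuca

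The Kcnq1ot1 cluster lies next to H19 on distal chromosome 7. Its paternal noncoding RNA Kcnq1ot1 silences neighbouring genes on that chromosome, which are therefore maternal. Of its 4 maternal genes, 2 were called, in opposite directions. Over the 5 genes of the cluster the share called was 40.0%, against 35.2% of all genes tested. Cdkn1c (ENSMUSG00000037664, chromosome 7, 143458339 to 143461050, minus strand), the cyclin-dependent kinase inhibitor p57, was at 205, 277, 278, 305 and 318 CPM in knockouts 1 to 5, against 489, 533, 557, 456 and 569.7 CPM in controls 1 to 5. Every knockout lay below every control, with a log2 fold change of -0.91 ± 0.11 (SE, edgeR adjusted p = 4.3e-05). An antisense gene, Gm44732, shares 30.7% of the Cdkn1c exon bases and stood at 9.96 ± 2.72 CPM in knockouts and 18.9 ± 4.90 CPM in controls (SD, n = 5 each). Whether reads were assigned by strand is not stated, so reads of that pair cannot be told apart.

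Phlda2 (ENSMUSG00000010760, chromosome 7, 143501545 to 143503150, minus strand), a small protein known as a brake on placental growth, went the other way. Its level was 5.21, 4.94, 5.34, 5.04 and 4.82 CPM in knockouts 1 to 5, against 1.97, 2.11, 1.88, 2.15 and 2.41 CPM in controls 1 to 5. The groups were separate and each was tight, with a mean of 2.41 times control and a log2 fold change of 1.27 ± 0.11 (SE, edgeR adjusted p = 3.7e-06). It lies on the same strand as Cdkn1c, in the same maternal domain.

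Kcnq1ot1 was at 69.9, 88.5, 69.5, 82 and 77.5 CPM in knockouts 1 to 5, and at 92.5, 97.8, 78.8, 82.2 and 69.1 CPM in controls 1 to 5. The groups overlapped and the gene was not called (log2 fold change -0.12, edgeR adjusted p = 0.380). The ratio of Cdkn1c to Kcnq1ot1 was 3.58 ± 0.524 in knockouts and 6.32 ± 1.29 in controls (SD, n = 5 each), with no overlap. Its mean log2 difference was -0.81 (exact two-sided permutation test, p = 0.00794, the smallest that 5 against 5 allows, adjusted p = 0.0212 over 8 pairs). With labels permuted only within litters, the exact permutation test gave p = 0.0417, the smallest possible there (adjusted p = 0.111). The other maternal genes of the cluster were not called: Slc22a18, a membrane transporter, at 0.436 ± 0.105 CPM in knockouts and 0.572 ± 0.141 CPM in controls, and Tssc4 at 43.6 ± 3.35 CPM in knockouts and 48 ± 3.86 CPM in controls (SD, n = 5 each).

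The Dlk1-Dio3 cluster of chromosome 12 had the largest fall among the imprinted genes tested and also the second largest rise. Its paternal genes are Dlk1, Rtl1 and Dio3, and its maternal genes are the noncoding RNAs Meg3, Rian and Mirg, which lie in a row on the plus strand and host small nucleolar RNAs and microRNAs. Dlk1 (ENSMUSG00000040856, chromosome 12, 109452823 to 109463336), a transmembrane protein of the Delta family that holds back differentiation of precursor cells, was at 23.2, 28.6, 27.2, 22.9 and 28.0 CPM in knockouts 1 to 5. In controls 1 to 5 it was at 56.7, 59.0, 57.5, 58.0 and 103 CPM. Every knockout lay below every control, and control 5 stood far above the other controls. The log2 fold change was -1.36 ± 0.16 (SE, edgeR adjusted p = 5.2e-05), and -1.16 (edgeR adjusted p = 1.1e-06) without control 5.

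The 3 maternal RNAs fell together. Meg3 (ENSMUSG00000021268, chromosome 12, 109541001 to 109571726) was at 114, 156, 116, 133 and 139 CPM in knockouts 1 to 5, against 272, 246, 287, 231 and 285 CPM in controls 1 to 5. Its log2 fold change was -1.01 ± 0.09 (SE, edgeR adjusted p = 5.8e-06), with no overlap. Rian, the host of a tandem array of small nucleolar RNAs, was at 111, 144, 118, 125 and 152 CPM in knockouts 1 to 5, against 243, 219, 223, 195 and 255 CPM in controls 1 to 5. The groups were separate, with a log2 fold change of -0.80 ± 0.09 (SE, edgeR adjusted p = 4.5e-05). Mirg, whose span holds 26 mature microRNAs from 14 microRNA genes, was at 6.68, 7.81, 6.12, 7.97 and 6.86 CPM in knockouts 1 to 5. In controls 1 to 5 it was at 13.2, 13.1, 12.2, 13.4 and 13.3 CPM, again without overlap, for a log2 fold change of -0.88 ± 0.09 (SE, edgeR adjusted p = 1.2e-05). Within every litter the 3 RNAs were lower in the knockout, with differences from -1.31 to -0.64 on the log2 scale.

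The far end of the cluster differed. Dio3 (ENSMUSG00000075707, chromosome 12, 110279068 to 110281097), the deiodinase that inactivates thyroid hormone, was at 0.798, 1.45, 1.45, 0.829 and 1.44 CPM in knockouts 1 to 5, against 0.504, 0.418, 0.286, 0.522 and 0.787 CPM in controls 1 to 5. The groups were separate by a narrow margin, since control 5 nearly reached knockout 1. The log2 fold change was 1.24 ± 0.29 (SE, edgeR adjusted p = 0.00498), and 1.22 (edgeR adjusted p = 0.0688) with litter A left out. Rtl1, a paternal gene derived from a retrotransposon with known roles in placenta and muscle, was at 3.0 ± 0.768 CPM in knockouts and 3.55 ± 0.610 CPM in controls (SD, n = 5 each) and was not called. The Meg3 to Dlk1 ratio was 5.08 ± 0.586 in knockouts and 4.14 ± 0.881 in controls (SD, n = 5 each). Its ranges overlapped, and the mean log2 difference of 0.31 did not pass (exact two-sided permutation test, p = 0.0635, adjusted p = 0.127 over 8 pairs).

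**Figure D2:**
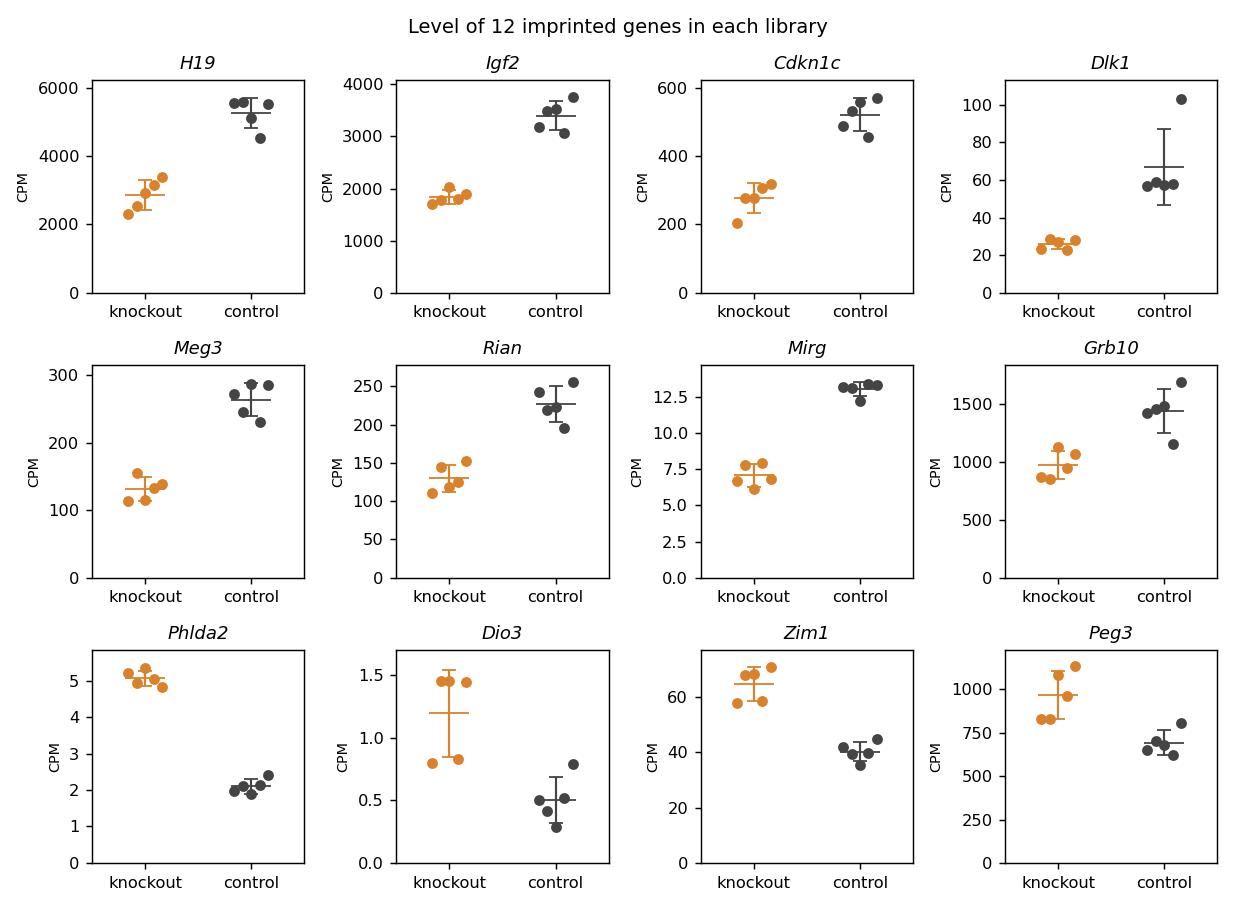
CPM (y axis, from 0) of 12 imprinted genes in each knockout and control library; points are libraries, lines the group mean and bars the SD (n = 5 each). The knockouts lie below all controls for H19, Igf2, Cdkn1c, Dlk1, Meg3, Rian, Mirg and Grb10, and above all controls for Phlda2, Dio3, Zim1 and Peg3; control 5 stands apart for Dlk1 at 103 CPM.

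Both genes of the Peg3 domain that were called rose. Peg3 (ENSMUSG00000002265, chromosome 7, 6703892 to 6730431, minus strand), a paternal zinc finger protein known in mouse for its part in growth and maternal care, was at 829, 831, 1083, 961 and 1132 CPM in knockouts 1 to 5, against 650.2, 703, 679, 621 and 808 CPM in controls 1 to 5. The highest control lay just under the lowest knockout, and the log2 fold change was 0.48 ± 0.10 (SE, edgeR adjusted p = 0.00243). Zim1, the neighbouring maternal zinc finger gene, was at 58.0, 68.0, 68.5, 58.6 and 70.9 CPM in knockouts 1 to 5, against 42.1, 39.3, 35.4, 39.8 and 44.7 CPM in controls 1 to 5. Its groups were well apart, with a log2 fold change of 0.69 ± 0.08 (SE, edgeR adjusted p = 3.3e-05).

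Usp29, a paternal gene that starts beside the Peg3 promoter and runs the other way, was not called. It was at 24.3, 22.8, 29.0, 32.1 and 33.5 CPM in knockouts 1 to 5, and at 31.5, 35.5, 26.5, 29.2 and 28.0 CPM in controls 1 to 5, with overlapping groups (log2 fold change -0.09, edgeR adjusted p = 0.604). The Peg3 to Usp29 ratio was 34.3 ± 2.89 in knockouts and 23.2 ± 3.85 in controls (SD, n = 5 each), with no overlap. The mean log2 difference was 0.57 (exact two-sided permutation test, p = 0.00794, adjusted p = 0.0212 over 8 pairs; adjusted p = 0.111 within litters). Zim3 shares 14.3% of the Usp29 exon bases on the opposite strand.

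At the Peg10-Sgce cluster of chromosome 6, 1 of the 2 paternal neighbours was called. Over the 4 genes of the cluster the share called was 50.0%, against 35.2% of all genes tested. Peg10, derived from a retrotransposon and needed for the mouse placenta, was at 409, 433, 708, 609.6 and 607 CPM in knockouts 1 to 5, against 405, 499, 475, 367 and 533 CPM in controls 1 to 5. The groups overlapped, with knockouts 1 and 2 of litter A inside the control range, and Peg10 was not called (log2 fold change 0.28, edgeR adjusted p = 0.180); with litter A left out it was 0.48 (edgeR adjusted p = 0.0366). Sgce, the sarcoglycan epsilon gene that shares the Peg10 promoter region on the other strand, was at 21.0, 22.3, 23.8, 24.8 and 25.8 CPM in knockouts 1 to 5, against 34.1, 32.0, 29.8, 27.9 and 29.8 CPM in controls 1 to 5. Sgce fell by 0.38 on the log2 scale (SE 0.07, edgeR adjusted p = 0.00148) without overlap, and by 0.24 (edgeR adjusted p = 0.0612) with litter A left out.

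The Peg10 to Sgce ratio was 23.3 ± 4.28 in knockouts and 14.9 ± 2.37 in controls (SD, n = 5 each), with separate ranges. The mean log2 difference was 0.64 (exact two-sided permutation test, p = 0.00794, adjusted p = 0.0212 over 8 pairs; adjusted p = 0.111 within litters). On the maternal side of the cluster, Asb4, a SOCS-box protein, was at 233 ± 16.3 CPM in knockouts and 305 ± 21.9 CPM in controls (SD, n = 5 each) and fell by 0.39 (SE 0.06, edgeR adjusted p = 0.000408). Ppp1r9a, which encodes neurabin, was at 115 ± 19.4 CPM in knockouts and 98.1 ± 11.8 CPM in controls (SD, n = 5 each) and was not called (edgeR adjusted p = 0.132).

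**Figure D3:**
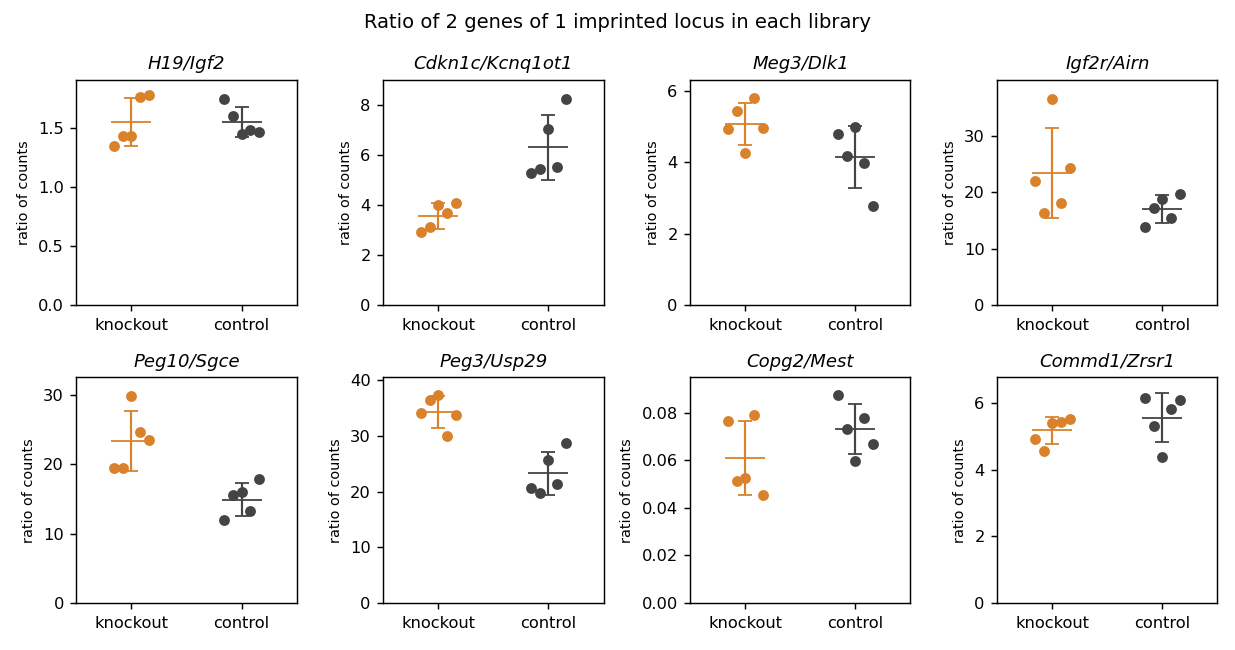
Ratio of the counts of 2 genes of 1 imprinted locus (y axis, from 0) in each knockout and control library, for 8 pairs; lines are group means and bars the SD (n = 5 each). Cdkn1c/Kcnq1ot1 lies lower in every knockout than in every control, Peg10/Sgce and Peg3/Usp29 lie higher, and the ranges of the other 5 pairs overlap.

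The adjacent genes Grb10 and Ddc of chromosome 11 moved apart. Grb10 (ENSMUSG00000020176, chromosome 11, 11930508 to 12038683, minus strand), an adaptor that restrains insulin and IGF receptor signalling, was at 870.4, 849, 1131, 947 and 1066 CPM in knockouts 1 to 5, against 1419, 1458, 1478, 1151 and 1691 CPM in controls 1 to 5. Every knockout was below every control, closest in knockout 3 and control 4, with a log2 fold change of -0.57 ± 0.10 (SE, edgeR adjusted p = 0.00114). Ddc, the adjacent dopa decarboxylase gene, imprinted in the mouse heart, was at 6.53, 7.5, 7.21, 9.60 and 8.15 CPM in knockouts 1 to 5, against 4.86, 5.78, 2.82, 4.80 and 4.70 CPM in controls 1 to 5. The groups were separate, with a log2 fold change of 0.77 ± 0.17 (SE, edgeR adjusted p = 0.00432).

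Igf2r, the maternal receptor that clears IGF2 from the cell surface, was at 312, 239.8, 406, 246 and 372 CPM in knockouts 1 to 5, against 224, 296, 265, 225 and 300.0 CPM in controls 1 to 5. The groups overlapped, with a log2 fold change of 0.27 (edgeR adjusted p = 0.193). Airn, the paternal antisense RNA that silences Igf2r on its own chromosome, was at 14.2, 14.6, 11.1, 13.6 and 15.3 CPM in knockouts 1 to 5, against 16.2, 17.2, 14.0, 14.6 and 15.2 CPM in controls 1 to 5, and was not called (edgeR adjusted p = 0.192). The Igf2r to Airn ratio was 23.5 ± 7.96 in knockouts and 17.0 ± 2.42 in controls (SD, n = 5 each), with overlap (exact two-sided permutation test, p = 0.0873, adjusted p = 0.140 over 8 pairs). Knockout 3 had the highest Igf2r level and the lowest Airn level of its group, for a ratio of 36.6.

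The Snrpn-Ndn region of chromosome 7, the mouse counterpart of the human Prader-Willi and Angelman region, had 2 of its 6 genes called, both lower. The share called was 33.3%, close to the 35.2% of all genes tested, of which 17.1% were called lower. Ndn, a growth-restraining protein of the MAGE family, was at 67.0 ± 2.83 CPM in knockouts and 83.7 ± 3.38 CPM in controls (SD, n = 5 each). It fell without overlap, by 0.32 on the log2 scale (SE 0.04, edgeR adjusted p = 0.000169). Snrpn, a spliceosomal protein gene, was at 31.9 ± 1.14 CPM in knockouts and 35.4 ± 1.86 CPM in controls (SD, n = 5 each), with overlap. Its log2 fold change of -0.15 passed narrowly (edgeR adjusted p = 0.0424), and did not pass in 18 of 23 alternative settings. With a block for replicate number the adjusted p was 0.0878, with a block for litter 0.0612 and with library size alone 0.217. Reads of Snrpn share exon bases on the same strand with Snurf (10%) and Gm38393 (27.3%), so its count is less certain. Magel2, a MAGE protein of ubiquitin ligase complexes, was at 8.12 ± 1.92 CPM in knockouts and 8.43 ± 1.16 CPM in controls, and Peg12 at 32.3 ± 1.70 CPM in knockouts and 33.6 ± 1.44 CPM in controls (SD, n = 5 each). Neither was called. Mkrn3, a makorin known for its part in the timing of puberty, was at 3.49 ± 0.495 CPM in knockouts and 4.40 ± 0.494 CPM in controls (SD, n = 5 each, edgeR adjusted p = 0.0660). Ube3a, a ubiquitin ligase imprinted in neurons, was at 89.1 ± 9.03 CPM in knockouts and 92.6 ± 6.86 CPM in controls (SD, n = 5 each, edgeR adjusted p = 0.608). Snhg14, the paternal transcript that runs antisense to it there, is no member of the list. Snhg14 stood at 67.7 ± 6.06 CPM in knockouts and 47.7 ± 6.68 CPM in controls (SD, n = 5 each, edgeR adjusted p = 0.00145). On the opposite strand, Snhg14 shares 8.74% of the Ube3a exon bases, Gm44560 9.82% and 9330162G02Rik 8.71%. Without a stated strand the counts of Ube3a and Snhg14 are less certain.

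Other abundant imprinted genes did not pass the test. Mest, a paternal mesoderm gene of the hydrolase fold, was at 1547, 1506, 1825, 1685 and 1719 CPM in knockouts 1 to 5, against 1401, 1520, 1415, 1332 and 1717 CPM in controls 1 to 5. The groups overlapped (log2 fold change 0.17, edgeR adjusted p = 0.108). Copg2, whose end overlaps that of Mest on the opposite strand by 17.8% of its exon bases, was at 118, 76.9, 95.8, 133 and 77.9 CPM in knockouts 1 to 5, and at 122, 112, 84.7, 104 and 115 CPM in controls 1 to 5. The Copg2 to Mest ratio was 0.0609 ± 0.0157 in knockouts and 0.0731 ± 0.0105 in controls (SD, n = 5 each) and did not pass (exact two-sided permutation test, p = 0.175, adjusted p = 0.233 over 8 pairs). The shared bases are 23.1% of those of Mest, so without a stated strand the counts of both and their ratio are less certain. Nnat, a paternal membrane proteolipid, was at 656 ± 82.3 CPM in knockouts and 664 ± 34.5 CPM in controls, and Gnas, the stimulatory G protein alpha subunit, at 930.4 ± 19.9 CPM in knockouts and 1013 ± 82.3 CPM in controls (SD, n = 5 each). Neither was called, and antisense genes share 13.1% and 8.83% of the Gnas exon bases.

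Zrsr1, a splicing factor gene, lies within the span of Commd1 on the opposite strand. They share exon bases, 9.17% of those of Zrsr1 and 6.94% of those of Commd1, so without a stated strand the counts of both and their ratio are less certain. Zrsr1 was at 10.6, 11.5, 10.5, 10.7 and 10.4 CPM in knockouts 1 to 5, and at 10.2, 10.9, 12.0, 10.4 and 9.94 CPM in controls 1 to 5. Commd1 was at 52.2, 52.4, 56.8, 58.1 and 57.5 CPM in knockouts 1 to 5, and at 62.7, 57.7, 52.7, 60.4 and 60.6 CPM in controls 1 to 5. The groups overlapped for both genes, and their ratio did not pass (exact two-sided permutation test, p = 0.389, adjusted p = 0.444 over 8 pairs). Plagl1, a zinc finger protein known to act on other imprinted genes in mouse, was at 65.0 ± 6.27 CPM in knockouts and 74.9 ± 10.5 CPM in controls (SD, n = 5 each, edgeR adjusted p = 0.122). Impact, a regulator of translation, was at 54.3 ± 0.604 CPM in knockouts and 52.2 ± 2.40 CPM in controls (SD, n = 5 each, edgeR adjusted p = 0.337).

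Of the Peg13 cluster of chromosome 15, the paternal noncoding RNA Peg13 was at 19 ± 1.63 CPM in knockouts and 23.5 ± 2.84 CPM in controls (SD, n = 5 each). Peg13 fell by 0.31 on the log2 scale (SE 0.09, edgeR adjusted p = 0.0201), with overlap, and did not pass with litter A left out (adjusted p = 0.105) or without control 2 (adjusted p = 0.0504). Trappc9, in whose intron Peg13 lies, was at 29.0 ± 0.944 CPM in knockouts and 30.6 ± 3.89 CPM in controls (SD, n = 5 each) and was not called. Kcnk9, a potassium channel gene imprinted in brain, did not pass the filter, with 2 counts in knockout 2, 1 count in control 3 and 0 in the other libraries. Rasgrf1, an exchange factor for Ras that is imprinted in mouse brain, was at 1.07 ± 0.212 CPM in knockouts and 0.70 ± 0.204 CPM in controls (SD, n = 5 each, edgeR adjusted p = 0.0599).

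**Figure D4:**
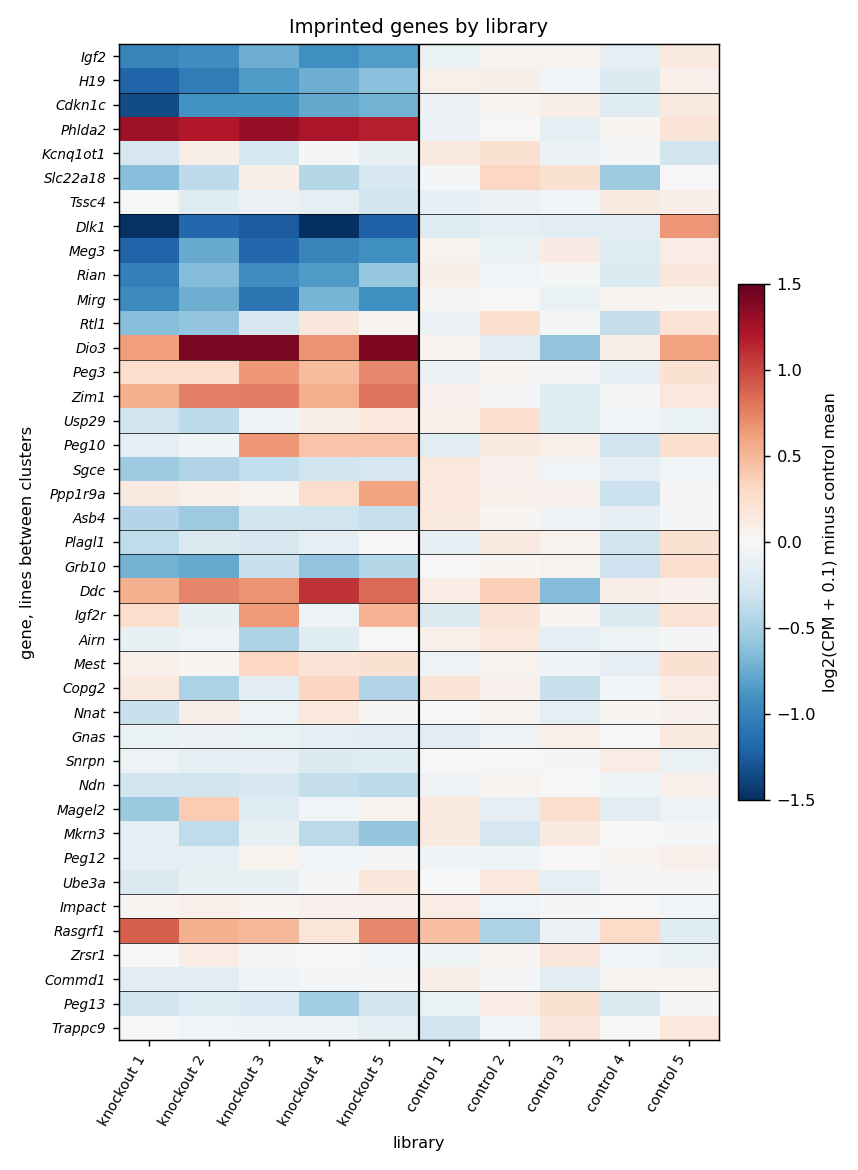
Level of the 41 tested imprinted genes (rows, by cluster) in 5 knockout libraries (left) and 5 control libraries (right), as log2(CPM + 0.1) minus the control mean, with colour limits at 1.5 and -1.5. The rows of Igf2, H19, Cdkn1c, Dlk1, Meg3, Rian and Mirg are low in all 5 knockouts and those of Phlda2, Dio3, Zim1 and Ddc are high, while most other rows stay near 0.

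Per kilobase of exon, the order of the most abundant imprinted genes changed in part. H19 stood first in both groups, at 1162 CPM per kb in knockouts and 2140 CPM per kb in controls. Mest and Nnat came next in knockouts, at 419.9 and 359 CPM per kb, followed by Igf2 at 322. In controls Igf2 came second, at 594 CPM per kb, ahead of Mest at 374 and Nnat at 363. Mest and Nnat, and in knockouts Nnat and Igf2, lay close together in this order, and their difference was not tested. The spread among replicates was close to that of other genes. The median SD of log2 levels over the 38 imprinted genes with a mean of at least 1 CPM was 0.15 in knockouts and 0.14 in controls, against 0.13 and 0.14 over all 15700 genes at that level.

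**Figure D5:**
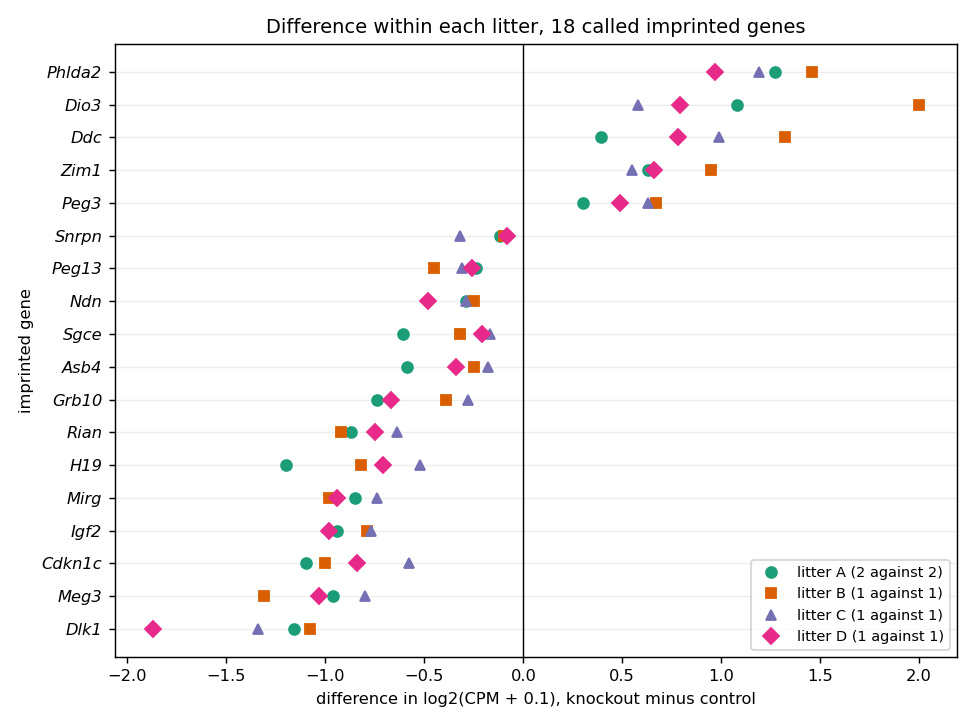
Difference of log2(CPM + 0.1), knockout minus control (x axis), within each of 4 litters for the 18 called imprinted genes; each symbol is 1 litter, with 2 against 2 libraries in litter A and 1 against 1 in B, C and D. All 4 symbols lie on 1 side of 0 for each gene, which groups without overlap fix in advance for all but 2 of them. Litter D stands apart for Dlk1 at -1.87 and litter B for Dio3 at 2.0.

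The promoters of the 4 genes called with a change of 2-fold or more are shown here, because CXXC1 binds CpG and because Dlk1 and Meg3 fell together. They come from RefSeq (GRCm38.p6) and run from 250 bases before to 50 after the annotated start. Capitals mark CpG.
Phlda2, chr7:143502475-143502774, minus strand: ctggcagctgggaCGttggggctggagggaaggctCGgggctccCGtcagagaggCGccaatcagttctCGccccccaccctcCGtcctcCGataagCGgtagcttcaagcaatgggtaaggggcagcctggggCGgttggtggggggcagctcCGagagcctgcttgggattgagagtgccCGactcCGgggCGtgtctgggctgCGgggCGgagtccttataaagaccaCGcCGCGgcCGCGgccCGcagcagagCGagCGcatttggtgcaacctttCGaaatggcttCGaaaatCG
Dlk1, chr12:109452573-109452872, plus strand: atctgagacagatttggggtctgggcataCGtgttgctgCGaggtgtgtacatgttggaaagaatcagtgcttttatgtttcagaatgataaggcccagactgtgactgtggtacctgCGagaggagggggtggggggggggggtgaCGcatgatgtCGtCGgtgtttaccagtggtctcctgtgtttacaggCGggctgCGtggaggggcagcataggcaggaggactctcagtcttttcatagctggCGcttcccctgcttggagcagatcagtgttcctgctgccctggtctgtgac
Meg3, chr12:109540746-109541045, plus strand: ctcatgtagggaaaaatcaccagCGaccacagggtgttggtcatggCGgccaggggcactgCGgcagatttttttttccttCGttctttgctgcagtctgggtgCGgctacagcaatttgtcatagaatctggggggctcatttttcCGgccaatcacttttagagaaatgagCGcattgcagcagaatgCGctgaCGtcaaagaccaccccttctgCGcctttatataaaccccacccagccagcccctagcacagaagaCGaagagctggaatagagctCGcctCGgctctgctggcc
Dio3, chr12:110278980-110279279, plus strand: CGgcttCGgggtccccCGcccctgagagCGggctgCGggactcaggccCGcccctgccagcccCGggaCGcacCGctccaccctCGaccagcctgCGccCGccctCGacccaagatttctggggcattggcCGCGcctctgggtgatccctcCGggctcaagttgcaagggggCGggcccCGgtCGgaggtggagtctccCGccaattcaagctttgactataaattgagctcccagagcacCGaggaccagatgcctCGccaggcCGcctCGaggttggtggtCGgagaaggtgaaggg

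The 2 genes that rose had 26 (Phlda2) and 25 (Dio3) CpG in this window, and the 2 that fell had 9 (Dlk1) and 13 (Meg3). This order did not hold for every other called gene. In the window with most CpG, Grb10 and Igf2, which fell, had 45 and 24, and Peg3 and Ddc, which rose, had 13 and 5. The Igf2 window nearest its annotated start had 2. By the window with most CpG, the median was 20 (5 to 26) over the 5 genes called higher. It was 10 (0 to 45) over the 9 genes called lower that had a RefSeq promoter. The difference was not tested. A RefSeq promoter was found for 33 of the 42 imprinted genes, all but H19, Cdkn1c, Rtl1, Peg10, Sgce, Impact, Peg13, Trappc9 and Kcnk9. A window was counted as CpG-rich with at least 50% G and C and an observed over expected CpG of at least 0.6, using the window with most CpG for each gene and, among ties, the one with the lowest start. By that measure 18 of 33 imprinted genes (54.5%) were CpG-rich, against 35.9% of 27025 genes. They comprised 3 of the 5 genes called higher, 4 of 9 called lower and 11 of 19 not called. The 33 genes had 50 windows, and the 27025 genes had 32851, so imprinted genes had more windows each to pick from. The 27025 genes were not limited to those tested here, so the 2 shares are not closely matched. Mest has tied windows on either side of the limit, and counting it as CpG-rich gives 19 of 33 genes. The hexamer TGCCGC, the core of the motif bound by the imprint-keeping factor ZFP57, was found on either strand in the Meg3 window and in none of the other 3 printed windows. It was in 22% of the 50 windows of imprinted genes, against 11.6% of all 32851 windows; a match is a description of the letters only.

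A list of genes linked to imprints, DNA methylation or chromatin was measured in the same libraries. It is wider than the factors that set or keep imprints, and also holds, for example, Tet1, Tet2 and Tet3. Of 28 tested genes on this list, 3 were called higher and 7 lower (35.7%, against 35.2% of all genes). The 7 include Cxxc1, whose deletion defines the knockout; without it 3 of 27 were called higher and 6 lower (33.3%). Dnmt3a, a DNA methyltransferase that sets methylation in the germ line and the embryo, fell by 0.53 on the log2 scale (SE 0.05, edgeR adjusted p = 1.1e-05), with 307 ± 17.7 CPM in knockouts and 443 ± 22.6 CPM in controls (SD, n = 5 each). Dnmt3l, the partner of Dnmt3a in setting germ line imprints, was near the limit of detection and was called higher (edgeR adjusted p = 0.000214). It had 12, 19, 22, 32 and 29 counts in knockouts 1 to 5, against 0, 0, 2, 4 and 2 counts in controls 1 to 5, without overlap. Eed, a Polycomb subunit, rose to 90.5 ± 3.01 CPM in knockouts, against 69.2 ± 4.46 CPM in controls (SD, n = 5 each, edgeR adjusted p = 9.1e-05). Rbl1, a pocket protein, was at 46.5 ± 1.45 CPM in knockouts and 58.8 ± 3.11 CPM in controls (SD, n = 5 each, edgeR adjusted p = 0.000205). Zfp57 was lower, at 70.6 CPM in knockouts and 91.8 CPM in controls on average (edgeR adjusted p = 0.000709). Its partner Trim28, the maintenance methyltransferase Dnmt1, its cofactor Uhrf1 and the insulator protein Ctcf were not called, with log2 fold changes between -0.08 and 0.10.

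Outside the 42 genes, 46 further imprinted genes on a second list were tested. Of these, 5 were called higher and 6 lower (23.9%, against 35.2% of all genes tested), with a median log2 fold change of -0.09. Th, tyrosine hydroxylase, was at 0.830 ± 0.374 CPM in knockouts and 0.170 ± 0.0402 CPM in controls (SD, n = 5 each, edgeR adjusted p = 0.000328). Ascl2, a transcription factor of the placenta, was at 0.808 ± 0.274 CPM in knockouts and 0.193 ± 0.0749 CPM in controls (SD, n = 5 each, edgeR adjusted p = 0.000361). Both lie between Igf2 and Tssc4 on chromosome 7, and the nearest gene of the list is Tssc4, of the Kcnq1ot1 cluster. Both were at low levels. Slc38a4, an amino acid transporter, rose to 126 ± 5.22 CPM in knockouts, against 99.3 ± 7.51 CPM in controls (SD, n = 5 each, edgeR adjusted p = 0.000391). H13, a signal peptide peptidase, fell to 98.0 ± 4.5 CPM in knockouts, against 115 ± 4.37 CPM in controls (SD, n = 5 each, edgeR adjusted p = 0.00115).

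Genes around the clusters were called in both directions. Within 200 kb of an imprinted gene of the list, and with the genes of the second list left out, 108 other genes were tested. Their median log2 fold change was -0.01. The called genes of the second list in this range, Th, Ascl2 and Cd81 (higher) and Casd1 (lower), are therefore not in these counts. Of these 108, 20 were called higher and 11 lower (18.5% and 10.2%, against 18.1% and 17.1% of all genes tested). The share called in either direction was 28.7%, against 35.2% of all genes tested. Among the 55 that code for protein, 10 were higher and 4 lower (25.5% called). Ctsd, a lysosomal protease 187 kb from H19, was at 163 ± 7.36 CPM in knockouts and 101 ± 8.33 CPM in controls, and Col1a2, a collagen 133 kb from Sgce, at 325 ± 21.0 CPM in knockouts and 641 ± 93.7 CPM in controls (SD, n = 5 each). Both were called (edgeR adjusted p = 3.1e-06 and 7.8e-06).

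The cell type markers of the bud moved between the groups too. Summed over 12 genes, limb mesenchyme markers were at 1655 to 2065 CPM in knockouts and 2579 to 2967 CPM in controls, with 6 of 12 called lower. Cartilage markers summed to 199.9 to 236 CPM in knockouts and 581 to 1030 CPM in controls, with 7 of 8 lower. Macrophage markers summed to 223 to 259 CPM in knockouts and 59.6 to 73.5 CPM in controls, with 12 of 12 higher. Erythroid markers were higher for 11 of 12 (3834 to 7991 CPM in knockouts and 3061 to 3621 CPM in controls) and ectoderm markers for 8 of 11 (634 to 749.9 CPM in knockouts and 351 to 581 CPM in controls). Endothelial markers were higher for 8 of 11 and lower for 1, muscle precursor markers higher for 5 of 8, and Schwann precursor markers higher for 1 and lower for 1 of 7. No marker was at or under 3 counts in every library. The part of these shifts in the imprinted gene results was not tested.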

How the data were processed

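Total RNA of 10 forelimb buds (5 knockout, 5 control) was sequenced. The deposited table held estimated counts per Ensembl gene; the submitters' processing notes name Salmon 0.8.2, R 3.4.1, DESeq2 1.16.1 and build mm10, without a role. The step from transcripts to genes and the use of strand are not given in the sources here. The other deposited table is called FPKM, but its signal is each rounded count over a factor of its library; it served only as an alternative. Of the deposited counts above 0, 0.059% were whole, so all were rounded. Groups came from the sample titles.

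Symbols and positions came from GENCODE M21 (GRCm38, the assembly of mm10), with a symbol for 47224 of 47729 IDs. After filterByExpr (at least 10 counts, 15 in total) and TMM scaling, 20562 genes entered edgeR 4.0.16 (glmQLFit, glmQLFTest, R 4.3.3) without covariates, with Benjamini-Hochberg adjustment and a threshold of 0.05. SE is the size of the log2 fold change divided by the root of the test's F statistic. Ratios of 8 gene pairs (counts plus 0.1) were compared by exact permutation. The edgeR script was tested on simulated data with known changes.

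Alternatives were DESeq2 1.42.0, library size, no filter, blocks for replicate number or litter, somite stage, leaving out libraries or litters, controls without Cre, and limma 3.58.1 on the log2 of the second table plus 1. Same-numbered libraries shared a litter per the labels. Correlations of their deviations from the group means were -0.0133, 0.155, -0.0245, 0.0416 and 0.2, so blocked values stand beside a result only where the call changes.

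A count of 3 corresponds to 0.0573 to 0.0905 CPM, and limits cover counting error only, as reads carry no molecular identifiers and may repeat 1 molecule. No library was a duplicate: chi-square over its degrees of freedom ran from 15.89 to 44.61 between replicates. Replicates are separate embryos by their litter and somite labels, and p-values measure the spread between these embryos. Values of every library are given for called genes with an absolute log2 fold change of at least 0.5 and a mean of at least 1 CPM, and for the ratio pairs; from other lists, up to 4 called genes. The rule for the 42 genes used names only, but these genes and the lists and tests were proposed with earlier results of these data known. Other named genes from those lists (Dnmt3l, Trim28, Dnmt1, Uhrf1, Ctcf, Zfp57, Snhg14, Gm44732) were chosen after their values were seen.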

Additional observations from a re-analysis of the deposited data

Results flagged for a closer look

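Within each group of 5 libraries, a library was singled out when its gap to the nearest other library, divided by the range of the group, passed Dixon's critical value of 0.71. Of 98 groups examined (imprinted genes and ratios), 5 passed, and chance alone passes about 5% of groups. Dlk1 stood at 103 CPM in control 5, the library whose Cre status carries a question mark, against 56.7 to 59.0 CPM in the other controls. Zrsr1 was at 11.5 CPM in knockout 2, against 10.4 to 10.7 CPM in the other knockouts, and Peg13 was at 16.3 CPM in knockout 4, against 19.2 to 20.4 CPM. Mirg was at 12.2 CPM in control 3, against 13.1 to 13.4 CPM in the other controls. Impact was at 56.3 CPM in control 1, against 50.6 to 52.1 CPM.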

How the results depend on the processing

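Across 23 alternative settings, 5 to 7 imprinted genes were called higher and 11 to 14 lower, and no called gene changed direction. Leaving out 1 library at a time gave 5 to 6 higher and 12 to 13 lower. The fits with a replicate block gave 5 higher and 12 lower, by number and by litter alike, and the block ended only the call of Snrpn. Of the 18 called genes, 14 passed in every setting, while Snrpn failed in 18 of the 23, Peg13 in 5, and Sgce and Dio3 in 1 each (litter A left out). By library size alone 38.9% of called imprinted genes were higher, against 27.8% with TMM, and 62.2% of all called genes, against 51.3%. Over all genes, leaving out litter A gave 2002 higher and 2021 lower.

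Of the 8 ratios, 3 passed, and 3 passed without each library in turn. None passed (0 of 8 in each case) when permutations stayed within litters, without the 2 libraries with high Xist, or against the 3 controls without Cre. In each of these settings 3 pairs had an unadjusted exact p under 0.05. The smallest exact p they allow is 0.0417, 0.0286 and 0.0179, in the same order. With 3 pairs at the smallest p, adjustment over 8 pairs gives 0.111 within litters and 0.0762 without the high Xist libraries. These 2 settings could therefore not pass 3 pairs, and they do not decide whether the 3 ratios hold. Depth limits Kcnk9, Slc22a18, Rasgrf1 and Dio3 most, and the gene counts hold no allele information.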
